A study of Homo sapiens with 21 samples.

Results

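The genes described here are the EGF receptor gene, 5 genes of EGF-family ligands and 4 genes of feedback inhibitors, 10 genes chosen by symbol out of the 23368 rows of the expression table. They are EGFR itself, the ligand genes HBEGF, AREG, EREG, TGFA and NRG1, and the inhibitor genes ERRFI1, SPRY2, SPRY4 and SPRED1. All 10 were present in the table and all 10 varied between libraries, so none was lost to a filter. RNA was sequenced from hTERT-HPNE cells, a pancreatic line that is immortalized with telomerase but not transformed. There were 7 groups of 3 biological replicates, 21 libraries in all: untreated cells (0 h), and cells collected 4, 8 or 24 h after 300 μM H2O2 or 400 ng/ml neocarzinostatin (NCS). H2O2 is an oxidant, and NCS is a drug that breaks both strands of DNA as ionizing radiation does. All groups grew in medium to which EGF, the founding ligand of this receptor, was added fresh, and the medium was exchanged for fresh medium when H2O2 or NCS was given. The labels do not say that untreated cells had this exchange, so against untreated cells the treatment and the fresh EGF-containing medium cannot be told apart. H2O2 and NCS at the same time both had it.

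EGFR is a receptor tyrosine kinase of the cell surface that signals through RAS and the kinase ERK to growth, migration and survival. Its ligands are made as precursors in the membrane and are cut free by ADAM proteases, so a cell can stimulate itself and its neighbours. HBEGF, AREG, EREG and TGFA encode ligands that bind EGFR, while NRG1 encodes neuregulin, which binds the related receptors ERBB3 and ERBB4. Signalling through the pathway induces its own brakes: ERRFI1 (also called MIG6) binds the kinase domain of the receptor and blocks it, and the Sprouty proteins (SPRY2, SPRY4) and SPRED1 restrain RAS and the ERK cascade below it.

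Values are rLog values, log2 counts that the authors normalized for library size over all libraries and shrank, most strongly where reads were few. A difference of 1 is a factor of 2 on that scale, and true fold changes of weakly expressed genes are understated. No counts were given, which leaves the depth behind each value unknown. Values are not divided by gene length, so levels are compared between groups and not between genes. Groups were compared with limma in a single fit of the 7 groups, with p-values adjusted over the 19694 genes that varied. A difference passed if its adjusted p was under 0.05, and "over 1" means that it also exceeded 1 on the log2 scale. Where the 3 libraries of one group all lay above or below the 3 of the other, the groups are said not to overlap. This was common over all genes tested. Against untreated cells it held for 49.5%, 42% and 59.7% at 4, 8 and 24 h of H2O2, and for 30%, 33.8% and 44.5% in NCS. Between the treatments it held for 50.1%, 40.8% and 36.5%. A two-sided exact permutation test of 3 libraries against 3 cannot give a p below 0.1. In bulk RNA, fewer cells of a kind and less RNA per cell cannot be told apart.

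The libraries were alike in scale, with medians between 7.14 and 7.19. Of 6 mesenchymal or progenitor markers, 6 had a mean of at least 5 (FN1 20.0, VIM 17.0). So had 4 of 8 duct and epithelial markers (KRT18 11.6, KRT8 7.93, KRT7 6.93 and SOX9 6.07). The rest of that list lay below 5, with CDH1 at 3.79, KRT19 at 0.604, CFTR at -1.34 and EPCAM at -1.76. The lowest value of the table was -2.31. None of 4 acinar, 4 endocrine, 3 immune and 3 endothelial markers had a mean of 5, and PRSS1, CELA3A, INS and CD3E were listed at 0. Of the endothelial genes, 2 of 3 passed as higher in H2O2 after 4 h, where the mean of the list lay between 1.197 and 1.25 per library against 1.02 to 1.04 in untreated cells. The mean of the mesenchymal list lay between 14.58 and 14.60 in H2O2 after 24 h, where 6 of 6 were lower than in untreated cells, and between 14.82 and 14.87 in untreated cells. The mean of the duct and epithelial list lay between 4.25 and 4.30 after 4 h of H2O2 and between 4.23 and 4.30 by 24 h, against 4.16 to 4.19 in untreated cells, with 3 of 8 genes higher at both times. The part of these shifts in the results below was not tested.

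The promoters of 5 members are shown. HBEGF, ERRFI1 and SPRY2 are included because they were all highest 4 h after H2O2. That was the first time sampled after treatment, so an earlier maximum would be missed. AREG and EREG, which were above untreated cells at all 3 times of H2O2, are included as neighbouring ligand genes. Each promoter is the 250 bases upstream of the RefSeq transcript start on GRCh38.p14, 5′ to 3′ on the gene's own strand. HBEGF lies at chr5:140346604-140346853 (minus strand), ERRFI1 at chr1:8026310-8026559 (minus), SPRY2 at chr13:80341127-80341376 (minus, the most upstream of its 3 entries), AREG at chr4:74444886-74445135 (plus) and EREG at chr4:74364895-74365144 (plus). The deposited values were made on hg19, and no coordinate was converted. Capitals mark matches, on either strand, to motifs chosen after the values were known: the AP-1 site TGANTCA, the cAMP response element TGACGTCA, the ETS core CCGGAA, the Sp1 GC box GGGCGG, the TATA box TATAAA and the CArG box.
HBEGF: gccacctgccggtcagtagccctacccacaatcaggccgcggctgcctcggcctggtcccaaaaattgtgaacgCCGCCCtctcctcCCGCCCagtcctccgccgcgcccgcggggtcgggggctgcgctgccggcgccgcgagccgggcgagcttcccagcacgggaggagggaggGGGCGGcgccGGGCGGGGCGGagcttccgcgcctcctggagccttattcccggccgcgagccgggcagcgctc
AREG: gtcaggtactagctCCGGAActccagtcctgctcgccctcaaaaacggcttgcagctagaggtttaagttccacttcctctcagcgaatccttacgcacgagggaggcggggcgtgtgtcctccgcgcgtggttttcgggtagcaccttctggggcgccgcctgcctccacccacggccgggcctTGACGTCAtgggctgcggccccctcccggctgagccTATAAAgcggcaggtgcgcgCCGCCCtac
EREG: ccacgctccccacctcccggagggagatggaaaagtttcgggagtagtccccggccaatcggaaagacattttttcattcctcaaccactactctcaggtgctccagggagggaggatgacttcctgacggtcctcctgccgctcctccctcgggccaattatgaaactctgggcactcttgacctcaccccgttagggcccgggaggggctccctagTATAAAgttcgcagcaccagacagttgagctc
ERRFI1: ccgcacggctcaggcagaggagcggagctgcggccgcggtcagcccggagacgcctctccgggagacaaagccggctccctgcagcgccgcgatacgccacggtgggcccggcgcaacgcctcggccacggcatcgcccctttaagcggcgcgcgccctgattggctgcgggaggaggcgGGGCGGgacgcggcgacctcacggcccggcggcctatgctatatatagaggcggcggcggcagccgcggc
SPRY2: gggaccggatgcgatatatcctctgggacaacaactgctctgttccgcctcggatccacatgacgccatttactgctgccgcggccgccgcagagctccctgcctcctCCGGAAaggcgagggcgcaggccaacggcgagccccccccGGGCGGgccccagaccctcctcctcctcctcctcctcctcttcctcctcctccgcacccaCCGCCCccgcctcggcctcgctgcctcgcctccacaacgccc
In the HBEGF promoter 5 GC boxes were found, 2 of which share a base, against 1 in ERRFI1 and 2 in SPRY2, which also held 1 ETS core. AREG held 1 cAMP response element, 1 ETS core, 1 GC box and 1 TATA box, which starts at position -29 counted from the transcript start. EREG held 1 TATA box at position -32 and no other match. Neither an AP-1 site nor a CArG box was matched in these 5 windows. Over 35116 RefSeq promoters of the same length, 42.6% held the GC box, 14.5% the ETS core, 10.7% the TATA box, 6.57% the AP-1 site, 1.65% the cAMP response element and 1.16% the CArG box. Of the members, 9 of 10 matched the table with 13 entries in all, and the only other matches to TATAAA and the only AP-1 sites were in the second EGFR entry. Only the exact letters TATAAA were searched, so variants such as the tatatata near the end of the ERRFI1 window were not counted. NRG1 had no entry. A match describes letters in a window and says nothing of binding. AREG and EREG are also neighbours on chromosome 4, between EPGN and BTC, which encode further EGF-family ligands.

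In H2O2, the members fell into separate time courses. HBEGF, ERRFI1 and SPRY2 rose by 4 h and declined by 8 h, and HBEGF ended below untreated cells. EGFR, AREG and NRG1 were higher after 24 h than after 8 h and after 8 h than after 4 h, while EREG had reached most of its rise by 4 h. SPRY4 was high after 4 h, lower after 8 h and high again after 24 h. SPRED1 fell by 4 h in both treatments. In NCS, HBEGF, AREG, EREG and SPRY4 differed less from untreated cells than in H2O2 at each time, while NRG1 differed more in NCS at 4 h and at 8 h, as did ERRFI1 and SPRY2 at 24 h, EGFR at 4 h and SPRED1 at 8 h.

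**Figure D1:**
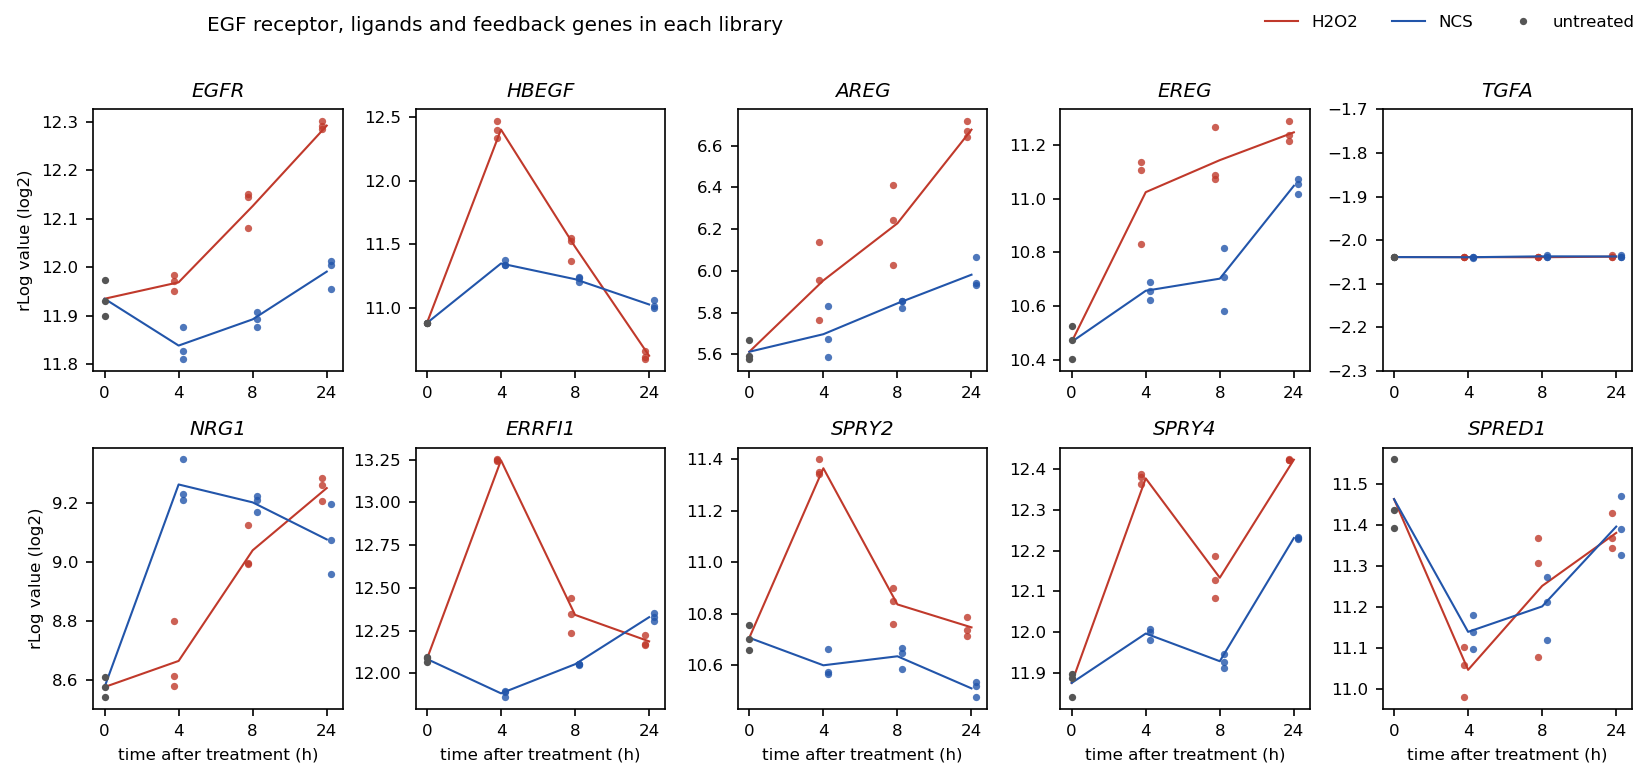
Value of each member in each library (points; rLog, log2) by time after treatment, with lines joining the means of 3 replicates. Times are evenly spaced and each panel has its own vertical scale. HBEGF, ERRFI1 and SPRY2 are highest after 4 h in H2O2 (red), EGFR, AREG and EREG after 24 h in H2O2, NRG1 reaches 9.26 after 4 h in NCS (blue), and TGFA stays at -2.04.

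EGFR, the receptor, was at 11.93, 11.97 and 11.90 in the 3 untreated replicates. In H2O2 it read 11.97, 11.98 and 11.95 after 4 h, 12.15, 12.08 and 12.15 after 8 h, and 12.28, 12.29 and 12.30 after 24 h. The 4 h libraries overlapped the untreated ones, and all libraries of 8 h and 24 h lay above them. Against untreated cells the difference was 0.03 after 4 h (SE 0.02, adjusted p = 0.276 from limma), 0.19 after 8 h (adjusted p = 3.87e-06) and 0.36 after 24 h (SE 0.02, adjusted p = 5.24e-10). The rise continued between 4 and 8 h (0.16, adjusted p = 3.03e-05) and between 8 and 24 h (0.17, adjusted p = 1.54e-05).

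In NCS, EGFR went slightly the other way after 4 h. Its values were 11.83, 11.81 and 11.88 after 4 h, 11.91, 11.88 and 11.89 after 8 h, and 11.95, 12.01 and 12.01 after 24 h. Only the 4 h libraries lay wholly below the untreated ones, with a difference of -0.10 (SE 0.02, adjusted p = 0.00809). This call was lost without untreated replicate 2 (adjusted p = 0.0514) or NCS 4 h replicate 2 (0.0502), and in a fit of those groups alone (0.0659). After 8 h the difference was -0.04 (adjusted p = 0.252) and by 24 h 0.06 (adjusted p = 0.0785). The latter passed without untreated replicate 2 (0.0277), without NCS 24 h replicate 1 (0.0318) and after quantile normalization (0.0200). In the order of the 7 groups, the H2O2 24 h and 8 h groups stood clear at the top, while the neighbours below them, from NCS 24 h down to NCS 4 h, did not differ beyond their spread.

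HBEGF, which encodes heparin-binding EGF-like growth factor, had the widest range of group means among the members, 1.78. It was at 10.88 in each untreated library. In H2O2 it reached 12.34, 12.40 and 12.47 after 4 h, fell back to 11.55, 11.37 and 11.52 after 8 h, and read 10.60, 10.66 and 10.61 after 24 h. No library of a treated group overlapped the untreated ones, with 4 h and 8 h above and 24 h below. The differences were 1.52 after 4 h (SE 0.04, adjusted p = 2.24e-15, 2.87-fold), 0.60 after 8 h (adjusted p = 1.11e-09) and -0.26 after 24 h (SE 0.04, adjusted p = 1.7e-05). Both steps of the decline passed, with -0.92 from 4 to 8 h (adjusted p = 4.41e-12) and -0.86 from 8 to 24 h (adjusted p = 5.04e-12).

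In NCS, HBEGF rose less and stayed above untreated cells to the end. Its values were 11.34, 11.37 and 11.33 after 4 h, 11.24, 11.20 and 11.23 after 8 h, and 11.06, 10.9996 and 11.02 after 24 h. All 9 of these libraries lay above all untreated ones. The differences were 0.47 (SE 0.04, adjusted p = 6.33e-08), 0.34 (adjusted p = 1.45e-06) and 0.15 (adjusted p = 0.00445). Of the decline in NCS, the step from 8 to 24 h passed firmly (-0.20, adjusted p = 0.000445). The step from 4 to 8 h (-0.12, adjusted p = 0.0368) was lost when any 1 of its 6 libraries was left out, with adjusted p between 0.0668 without NCS 8 h replicate 1 and 0.13 without NCS 4 h replicate 2.

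AREG encodes amphiregulin, a weaker EGFR ligand that epithelial cells use to stimulate themselves. In the untreated libraries it was at 5.59, 5.67 and 5.58. In H2O2 it read 6.14, 5.76 and 5.96 after 4 h, 6.41, 6.03 and 6.24 after 8 h, and 6.67, 6.64 and 6.72 after 24 h. All 9 H2O2 libraries lay above the untreated ones, although replicate 2 was the lowest after 4 h and after 8 h. The differences were 0.34 (SE 0.09, adjusted p = 0.00465), 0.62 (adjusted p = 2.33e-05) and 1.06 (SE 0.09, adjusted p = 1.47e-08, 2.09-fold), so that AREG was the only member over 1 after 24 h. From 8 to 24 h it rose by 0.45 (adjusted p = 0.000484). The step from 4 to 8 h (0.27, adjusted p = 0.0194) was lost without H2O2 4 h replicate 2 (0.128) or H2O2 8 h replicate 1 (0.127).

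In NCS, AREG was at 5.67, 5.59 and 5.83 after 4 h, 5.86, 5.82 and 5.86 after 8 h, and 6.07, 5.93 and 5.94 after 24 h. The 4 h libraries overlapped the untreated ones and those of 8 h and 24 h did not. The difference was 0.08 after 4 h (adjusted p = 0.688), 0.23 after 8 h (adjusted p = 0.0756) and 0.37 after 24 h (SE 0.09, adjusted p = 0.00286). That after 8 h passed after aligning library medians (0.0373), among genes with a mean of at least 5 (0.0244) and in a fit of those groups alone (0.0124). RefSeq lists AREGB as another name of AREG and the table has no AREGB row. The hg19 build carries a near-identical copy of this locus, so reads could have been split or discarded, and AREG values are uncertain for that reason.

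EREG, the gene of epiregulin, was at 10.53, 10.48 and 10.40 in untreated cells. In H2O2 it read 11.13, 10.83 and 11.11 after 4 h, 11.27, 11.09 and 11.07 after 8 h, and 11.29, 11.22 and 11.24 after 24 h. Every H2O2 library was above every untreated one, with differences of 0.56 (SE 0.07, adjusted p = 2.73e-06), 0.67 (adjusted p = 3.37e-07) and 0.78 (SE 0.07, adjusted p = 2.6e-08). The later steps, 0.12 from 4 to 8 h (adjusted p = 0.178) and 0.10 from 8 to 24 h (adjusted p = 0.264), did not pass, and neighbouring times overlapped. In NCS it was at 10.62, 10.66 and 10.69 after 4 h, 10.82, 10.71 and 10.58 after 8 h, and 11.05, 11.07 and 11.02 after 24 h, again all above the untreated libraries. The main rise in NCS was late: 0.58 after 24 h (SE 0.07, adjusted p = 1.43e-06), of which 0.34 came between 8 and 24 h (adjusted p = 0.000704).

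The earlier differences of EREG in NCS lay near the threshold. After 4 h the difference was 0.19 (adjusted p = 0.0702), which passed after aligning library medians (0.0261), after quantile normalization (0.0472), among genes with a mean of at least 5 (0.014) and in a fit of those groups alone (0.017). After 8 h it was 0.23 (adjusted p = 0.0174), and the call was lost without untreated replicate 3 (0.0761), without NCS 8 h replicate 1 (0.105) or in a fit of those groups alone (0.0523).

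TGFA, which encodes transforming growth factor alpha, lay between -2.04 and -2.03 in all 21 libraries, near the lowest value of the table. None of the 15 comparisons passed for TGFA, and no difference from untreated cells exceeded 0.00169. At values this low the transformation shrinks differences the most, so a change was not detectable.

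NRG1 rose earlier in NCS than in H2O2. Neuregulin is the ligand of ERBB3 and ERBB4 rather than of EGFR. Its gene was at 8.61, 8.58 and 8.54 in untreated cells. In NCS it reached 9.21, 9.23 and 9.35 by 4 h, was at 9.23, 9.21 and 9.17 after 8 h, and at 8.96, 9.07 and 9.20 after 24 h. All 9 NCS libraries lay above the untreated ones, with differences of 0.69 (SE 0.06, adjusted p = 1.45e-07), 0.63 (adjusted p = 2.25e-07) and 0.50 (adjusted p = 1.35e-06). Neither step between times passed in NCS (-0.06, adjusted p = 0.659, and -0.13, adjusted p = 0.133), and without NCS 24 h replicate 3 the latter became -0.19 (0.0289).

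In H2O2, NRG1 was at 8.58, 8.61 and 8.80 after 4 h, 9.13, 8.9998 and 8.996 after 8 h, and 9.28, 9.26 and 9.21 after 24 h. After 4 h replicate 3 stood above the other two, which overlapped the untreated libraries, and from 8 h on the groups did not overlap. The difference was 0.09 after 4 h (SE 0.06, adjusted p = 0.247), 0.46 after 8 h (adjusted p = 4.79e-06) and 0.67 after 24 h (adjusted p = 2.31e-08). Quantile normalization brought the 4 h difference to 0.15 (adjusted p = 0.0498). The steps from 4 to 8 h (0.38, adjusted p = 4.42e-05) and from 8 to 24 h (0.21, adjusted p = 0.00725) both passed.

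ERRFI1, the inhibitor that acts on the receptor itself, was at 12.10, 12.09 and 12.07 in untreated cells. It rose to 13.25, 13.24 and 13.25 after 4 h of H2O2, then read 12.44, 12.23 and 12.35 after 8 h and 12.17, 12.17 and 12.23 after 24 h. All H2O2 libraries lay above the untreated ones. The differences were 1.16 after 4 h (SE 0.03, adjusted p = 1.51e-14, 2.24-fold), 0.26 after 8 h (adjusted p = 6.28e-06) and 0.10 after 24 h (adjusted p = 0.02). The last of these was lost without untreated replicate 3 (0.0663) or H2O2 24 h replicate 3 (0.0973). The step from 4 to 8 h was -0.90 (adjusted p = 1.56e-12).

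ERRFI1 ran the opposite course in NCS. It was at 11.90, 11.89 and 11.86 after 4 h, 12.06, 12.06 and 12.05 after 8 h, and 12.33, 12.35 and 12.31 after 24 h. The 4 h and 8 h libraries lay below all untreated ones, the latter by little, and the 24 h libraries above them. ERRFI1 fell by 0.20 after 4 h (SE 0.03, adjusted p = 0.000294), was at a difference of -0.03 after 8 h (adjusted p = 0.655) and rose by 0.24 after 24 h (adjusted p = 8.87e-06). The steps up from 4 to 8 h (0.17, adjusted p = 0.00184) and from 8 to 24 h (0.28, adjusted p = 3.87e-06) passed.

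SPRY2, one of the Sprouty genes, followed ERRFI1 in H2O2. From 10.66, 10.70 and 10.76 in untreated cells it rose to 11.40, 11.35 and 11.34 after 4 h, and was then at 10.85, 10.76 and 10.90 after 8 h and 10.72, 10.79 and 10.74 after 24 h. The 4 h libraries stood clear of all others, and those of 24 h overlapped the untreated ones. The difference was 0.66 after 4 h (SE 0.04, adjusted p = 8.46e-11), 0.13 after 8 h (adjusted p = 0.00859) and 0.04 after 24 h (adjusted p = 0.464). The 8 h call was lost without untreated replicate 1 (0.0509), without H2O2 8 h replicate 3 (0.06) or in a fit of those groups alone (0.0803).

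In NCS, SPRY2 read 10.66, 10.57 and 10.57 after 4 h, 10.65, 10.67 and 10.59 after 8 h, and 10.52, 10.53 and 10.48 after 24 h. Only the 24 h libraries lay wholly below the untreated ones, where SPRY2 fell by 0.20 (SE 0.04, adjusted p = 0.000234). The differences after 4 h (-0.11, adjusted p = 0.0532) and 8 h (-0.07, adjusted p = 0.192) did not pass. That after 4 h did pass without untreated replicate 1 (0.0406) or NCS 4 h replicate 1 (0.0234), after aligning library medians (0.0274) and among genes with a mean of at least 5 (0.023).

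SPRY4, the other Sprouty gene, dipped after 8 h in both treatments. It was at 11.90, 11.84 and 11.89 in untreated cells. In H2O2 it read 12.36, 12.38 and 12.39 after 4 h, 12.13, 12.08 and 12.19 after 8 h, and 12.42 in each library after 24 h. In NCS it read 12.01, 11.98 and 12.001 after 4 h, 11.95, 11.91 and 11.93 after 8 h, and 12.23 in each library after 24 h. All treated libraries lay above the untreated ones.

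Against untreated cells, SPRY4 in H2O2 was higher by 0.50 after 4 h (SE 0.02, adjusted p = 2.99e-12), 0.26 after 8 h (adjusted p = 3.08e-08) and 0.55 after 24 h (adjusted p = 2.68e-13). In NCS the differences were 0.12 (adjusted p = 0.000501), 0.05 (adjusted p = 0.0879) and 0.35 (adjusted p = 1.35e-10), and that after 8 h passed after quantile normalization (0.004). In H2O2 the drop to 8 h (-0.24, adjusted p = 4.94e-08) and the rise to 24 h (0.29, adjusted p = 3.91e-09) both passed. In NCS the rise from 8 to 24 h was 0.30 (adjusted p = 3.45e-09), while the drop before it (-0.07, adjusted p = 0.0438) was lost when any 1 of its 6 libraries was left out (adjusted p between 0.0515 without NCS 8 h replicate 1 and 0.154 without NCS 8 h replicate 2).

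SPRED1, which recruits the RAS inactivator neurofibromin to the membrane, was the member that fell in both treatments. It was at 11.56, 11.44 and 11.39 in untreated cells. In H2O2 it read 11.10, 10.98 and 11.06 after 4 h, 11.31, 11.37 and 11.08 after 8 h, and 11.43, 11.37 and 11.35 after 24 h. In NCS it read 11.10, 11.18 and 11.14 after 4 h, 11.27, 11.21 and 11.12 after 8 h, and 11.47, 11.39 and 11.33 after 24 h. At 4 and 8 h all treated libraries lay below the untreated ones, and by 24 h both groups overlapped them.

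SPRED1 fell by 0.42 after 4 h of H2O2 (SE 0.06, adjusted p = 2.34e-05) and by 0.32 after 4 h of NCS (adjusted p = 0.00103). After 8 h the differences were -0.21 in H2O2 (adjusted p = 0.0115) and -0.26 in NCS (adjusted p = 0.0041). The H2O2 call after 8 h was lost without untreated replicate 1 (0.0718), without H2O2 8 h replicate 3 (0.09) or in a fit of those groups alone (0.119). After 24 h neither passed, with -0.08 in H2O2 (adjusted p = 0.357) and -0.07 in NCS (adjusted p = 0.485).

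**Figure D2:**
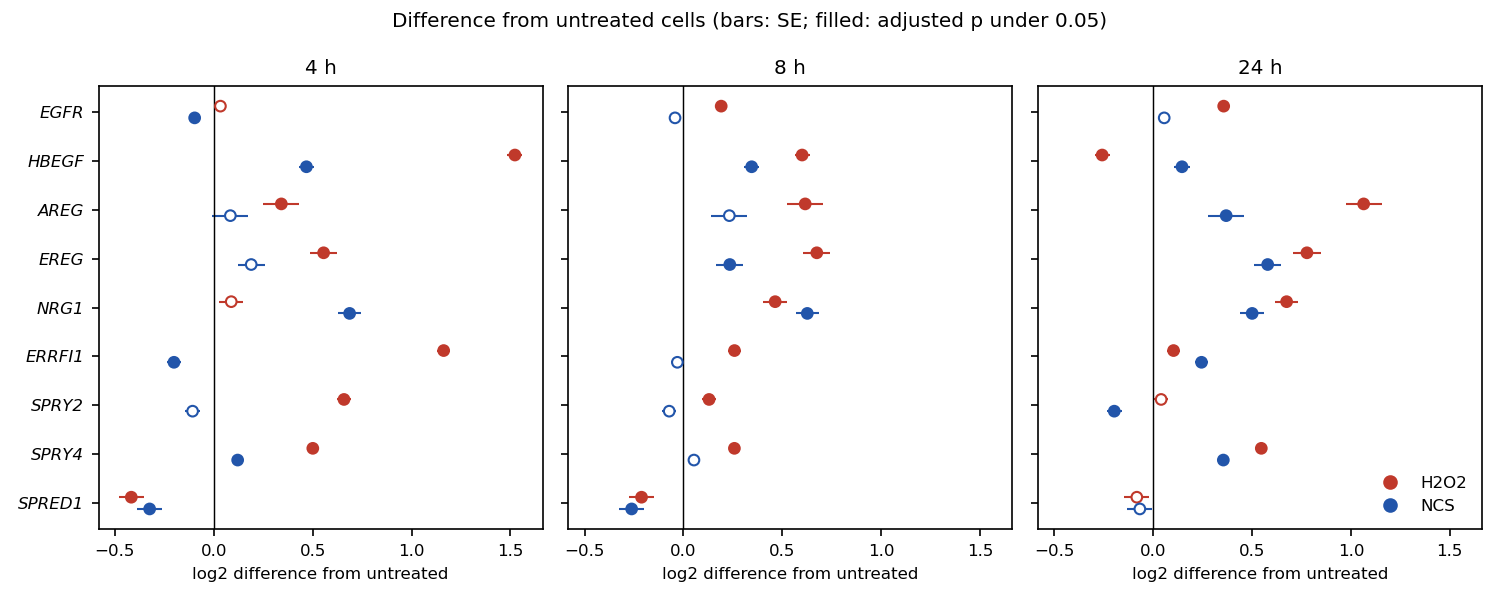
Difference of 9 members from untreated cells (log2 scale of rLog values) at 4, 8 and 24 h of H2O2 (red) and NCS (blue), with bars of 1 SE from limma and filled points where the adjusted p was under 0.05. TGFA, whose values lay near the bottom of the table, is left out. The 4 h panel shows HBEGF at 1.52 and ERRFI1 at 1.16 in H2O2, and the 24 h panel AREG at 1.06.

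Of the 10 members, 6 passed as higher than untreated and 1 as lower after 4 h of H2O2, where 26.2% of all genes tested were higher and 19.7% lower. After 8 h, 8 were higher and 1 lower (18.8% and 18.6% of all genes), and by 24 h 6 were higher and 1 lower (20.2% and 19.9%). In NCS, 3 were higher and 3 lower after 4 h (7.47% and 9.72%), 3 higher and 1 lower after 8 h (10.5% and 13.3%), and 6 higher and 1 lower after 24 h (19.6% and 18.4%). Among the 11681 genes with a mean of at least 5, to which 9 of the 10 members belong, the shares that passed in either direction were larger. They were 54.9%, 55.9% and 62.1% in H2O2 and 27.9%, 38.5% and 60% in NCS, against which a count of members that passed has to be read. The 6 comparisons share the same untreated libraries.

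Differences over 1 were rare in the table. After 4 h of H2O2, 2 members, HBEGF and ERRFI1, were over 1, against 0.696% of all genes, and by 24 h 1 member, AREG, against 1.61%. After 8 h of H2O2 none was (0.518% of all genes), nor in NCS after 4 h (0.218%), 8 h (0.34%) or 24 h (1.5%). The median absolute difference of the members was 0.46 after 4 h of H2O2 against 0.08 over all genes tested, and 0.16 against 0.04 after 4 h of NCS. These figures include genes with few reads, whose differences are shrunk.

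The direct comparison of H2O2 with NCS at the same time sets apart the stresses in cells that all had fresh medium. After 4 h, 7 members were higher and 1 lower in H2O2 (26.3% and 18% of all genes, and 52.4% in either direction among genes with a mean of at least 5), and 2 were over 1 (0.574% of all genes). ERRFI1 differed by 1.36 (SE 0.03, adjusted p = 3.6e-15, 2.57-fold), HBEGF by 1.05 (SE 0.04, adjusted p = 5.15e-13) and SPRY2 by 0.77 (adjusted p = 1.52e-11). Smaller differences were those of SPRY4 (0.38, adjusted p = 1.22e-10), EREG (0.37, adjusted p = 0.000269) and EGFR (0.13, adjusted p = 0.000213). For each of these genes the H2O2 libraries lay above the NCS libraries, as they did for 28.4% of all genes tested. The NRG1 difference was -0.60 (SE 0.06, adjusted p = 1.75e-07), and its H2O2 libraries lay below, as for 21.7% of all genes.

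AREG also passed after 4 h (0.26, adjusted p = 0.0275), but its groups overlapped. That AREG call was lost without H2O2 4 h replicate 1 (0.168), H2O2 4 h replicate 3 (0.0616), NCS 4 h replicate 1 (0.0715) or NCS 4 h replicate 2 (0.124), after quantile normalization (0.161) and in a fit of those groups alone (0.107).

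After 8 h, 7 members were again higher and 1 lower in H2O2 (18.7% and 15.4% of all genes, and 51.2% in either direction among genes with a mean of at least 5), with none over 1 (0.162%). Inhibitor genes differed by 0.29 (ERRFI1, adjusted p = 2.64e-06), 0.20 (SPRY2, adjusted p = 0.000266) and 0.20 (SPRY4, adjusted p = 8.16e-07). Among the ligands, EREG differed by 0.44 (adjusted p = 6.16e-05), AREG by 0.38 (adjusted p = 0.00269) and HBEGF by 0.26 (adjusted p = 3.54e-05). EGFR differed by 0.23 (adjusted p = 6.22e-07). NRG1 was lower in H2O2 by an amount near the threshold (-0.16, adjusted p = 0.042), lost without H2O2 8 h replicate 2 (0.118), H2O2 8 h replicate 3 (0.139), NCS 8 h replicate 1 (0.111), NCS 8 h replicate 2 (0.0969) or NCS 8 h replicate 3 (0.0587).

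By 24 h, 6 members were higher and 2 lower in H2O2 (11% and 10.9% of all genes, and 34.5% in either direction among genes with a mean of at least 5), none of them over 1 (0.0152%). The lower ones were HBEGF (-0.40, adjusted p = 3.31e-07) and ERRFI1 (-0.14, adjusted p = 0.00486), whose differences had been the largest of the members after 4 h. AREG was higher by 0.70 (SE 0.09, adjusted p = 1.56e-05), EGFR by 0.30 (SE 0.02, adjusted p = 4.5e-08), SPRY2 by 0.24 (adjusted p = 9.69e-05) and SPRY4 by 0.19 (adjusted p = 2.76e-06). EREG (0.20, adjusted p = 0.0476) was lost when any 1 of its 6 libraries was left out, with adjusted p between 0.0765 without H2O2 24 h replicate 2 and 0.145 without H2O2 24 h replicate 1. NRG1 (0.17, adjusted p = 0.0433) was lost without 5 of its 6 libraries, the exception being NCS 24 h replicate 3, with adjusted p from 0.0546 without H2O2 24 h replicate 3 to 0.231 without NCS 24 h replicate 1.

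SPRED1 did not pass at any of these times, with -0.09 after 4 h (adjusted p = 0.255), 0.05 after 8 h (adjusted p = 0.621) and -0.02 after 24 h (adjusted p = 0.936), each with an SE of 0.06. Without H2O2 8 h replicate 2 the SPRED1 difference after 8 h turned to -0.00857, and that after 24 h turned to 0.00308 without H2O2 24 h replicate 3 and to 0.0222 without NCS 24 h replicate 1.

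**Figure D3:**
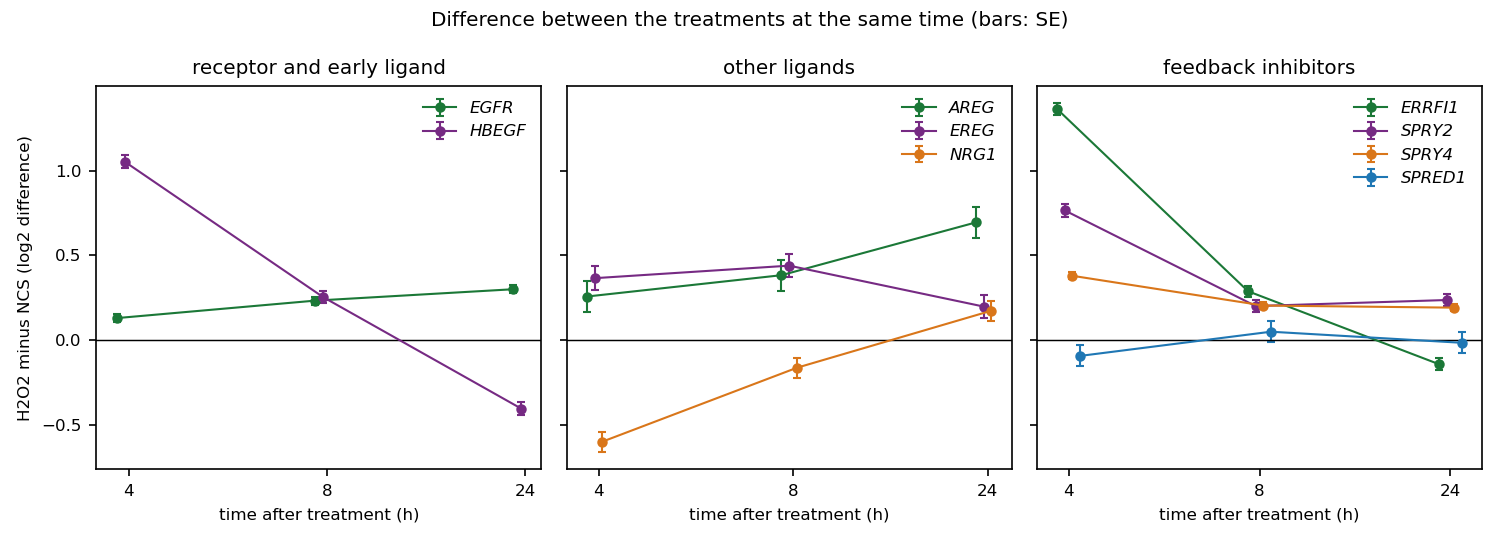
H2O2 minus NCS (log2 scale of rLog values) at 4, 8 and 24 h for 9 members, with bars of 1 SE from limma, and times evenly spaced. HBEGF goes from 1.05 to -0.40 and ERRFI1 from 1.36 to -0.14, NRG1 goes from -0.60 to 0.17, and SPRED1 lies between -0.09 and 0.05.

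Whether the gap between the treatments changed with time was tested as an interaction. From 4 to 24 h, 7 of 10 members passed (39.4% of all genes), with the gap changing for ERRFI1 by -1.505 (SE 0.05, adjusted p = 6.63e-13) for HBEGF by -1.46 (adjusted p = 2.36e-12) and for NRG1 by 0.77 (SE 0.08, adjusted p = 1.01e-06). From 4 to 8 h, 6 of 10 passed (32.7% of all genes). EREG, TGFA and SPRED1 did not pass in either test. EREG did pass from 4 to 24 h without H2O2 4 h replicate 2 (-0.26, adjusted p = 0.0152), and SPRED1 from 4 to 8 h without H2O2 8 h replicate 3 (0.23, adjusted p = 0.0238).

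Changes between neighbouring times within a treatment were counted as well. In H2O2, 4 members were higher and 4 lower after 8 h than after 4 h (18% and 27.7% of all genes), and 4 higher and 2 lower after 24 h than after 8 h (19.4% and 23.2%). Among genes with a mean of at least 5, 57.1% and 63.2% passed in either direction over these steps. In NCS, 1 was higher and 2 lower after 8 h than after 4 h (6.16% and 7.5%), and 5 higher and 2 lower after 24 h than after 8 h (14.9% and 15%). Of genes with a mean of at least 5, 22.4% and 48% passed in either direction over the steps in NCS. ERRFI1 was the member that rose between 4 and 8 h of NCS, and the only one of the 3 that still passed whichever of the 6 libraries was left out, while the HBEGF and SPRY4 calls were lost each time.

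Several of these steps rested on single libraries. SPRED1 rose by 0.20 from 4 to 8 h of H2O2 (adjusted p = 0.0119), which was lost without H2O2 4 h replicate 2 (0.0589), H2O2 8 h replicate 1 (0.0538) or H2O2 8 h replicate 2 (0.0749). SPRED1 also rose by 0.19 from 8 to 24 h of NCS (adjusted p = 0.0235), lost without NCS 8 h replicate 2 (0.0503), NCS 8 h replicate 3 (0.119), NCS 24 h replicate 1 (0.116) or NCS 24 h replicate 2 (0.0528). SPRY2 fell by 0.12 from 8 to 24 h of NCS (adjusted p = 0.0138), lost without NCS 8 h replicate 2 (0.0655) or NCS 24 h replicate 3 (0.0645). Its step from 8 to 24 h of H2O2 was -0.09 (adjusted p = 0.0592) and passed without H2O2 8 h replicate 2 (0.00819) or H2O2 24 h replicate 2 (0.0421). That of SPRED1 over the same time was 0.13 (adjusted p = 0.111) and passed without H2O2 8 h replicate 2 (0.0244).

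The other genes of the pathway were read from 7 lists compiled by hand, with 69 genes tested. After 4 h, 16 of them were higher and 21 lower in H2O2 (median difference -0.02, against 0.00 over all genes), with 9 higher and 16 lower in NCS (median -0.02). By 24 h, 32 were higher and 13 lower in H2O2 (median 0.09), with 24 higher and 14 lower in NCS (median 0.04). Over all genes tested, 26.2% were higher and 19.7% lower after 4 h of H2O2 (7.47% and 9.72% in NCS), and 20.2% and 19.9% by 24 h (19.6% and 18.4% in NCS). Among genes with a mean of at least 5, 54.9% passed in either direction after 4 h and 62.1% by 24 h of H2O2, and 27.9% and 60% in NCS, and the counts of each list below stand against the same shares. Of the other receptors of the family, ERBB2 fell by 0.26 after 4 h of H2O2 (adjusted p = 2.76e-06), and ERBB3 and ERBB4 fell by 0.45 (adjusted p = 3.11e-05) and 0.34 (adjusted p = 0.000375) after 24 h of H2O2, when EGFR was higher. In H2O2 after 24 h 2 of these 3 receptors were thus lower and none higher. Of the 6 other EGF-family ligand genes, NRG3 was listed at 0 in every library and none of the other 5 passed in H2O2. The betacellulin gene BTC passed in NCS after 24 h with a difference of 0.01 (adjusted p = 0.00805) at values between -1.63 and -1.62.

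Of 8 genes for ligand shedding, 1 was higher and 3 lower after 4 h of H2O2, and 3 were higher and 3 lower after 24 h. ADAM10, a sheddase, fell by 0.33 after 8 h of H2O2 (adjusted p = 4.68e-09), and TIMP3, a protease inhibitor, rose by 0.26 after 4 h of H2O2 (adjusted p = 0.000247). RHBDF2, which brings ADAM17 to the surface, was at a low 3.96 in untreated cells. After 24 h it rose by 0.32 in NCS (adjusted p = 0.000123) and by 0.28 in H2O2 (adjusted p = 0.000487). Other changes ran the opposite way. TIMP3 differed by -0.20 after 24 h of H2O2 (adjusted p = 0.00273). ADAM17 was higher by 0.22 after 8 h (adjusted p = 0.000293) and by 0.14 after 24 h of H2O2 (adjusted p = 0.0128). Of 12 genes for receptor turnover, 9 were higher and 1 lower after 24 h of H2O2, and 6 higher and 2 lower after 24 h of NCS, against 62.1% and 60% that passed in either direction among genes with a mean of at least 5. The ubiquitin ligase gene CBLB rose by 0.70 after 8 h of H2O2 (SE 0.03, adjusted p = 5.79e-11), and LRIG1, a membrane protein that lowers receptor levels, by 0.64 after 24 h of H2O2 (adjusted p = 1.79e-09). LRIG2, its relative, rose by 0.52 after 8 h of H2O2 (adjusted p = 3.96e-07). At the same times these genes rose in NCS too, CBLB by 0.35 (adjusted p = 3.01e-07), LRIG1 by 0.55 (1.58e-08) and LRIG2 by 0.35 (6.08e-05). Between the treatments LRIG1 did not pass after 24 h (0.09, adjusted p = 0.226). CBLB (0.35, adjusted p = 3.66e-07) and LRIG2 (0.16, adjusted p = 0.0232) were higher in H2O2 after 8 h.

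Of 20 genes for adaptors and the RAS-ERK cascade, 2 were higher and 9 lower after 4 h of H2O2, and 8 higher and 2 lower after 24 h. The 11 that passed after 4 h were a share close to the 54.9% of genes with a mean of at least 5, and the 10 after 24 h a share below the 62.1%. The RAS inactivators NF1 and RASA1 were among the lower ones after 4 h (-0.36, adjusted p = 2.83e-07, and -0.29, adjusted p = 2.77e-06). The adaptor gene SHC1 rose by 0.48 after 24 h of H2O2 (adjusted p = 6.81e-12) and by 0.46 after 24 h of NCS (adjusted p = 1.53e-11). Its difference between the treatments then was 0.02 (adjusted p = 0.608). Of 11 genes listed by hand as other feedback inhibitors, 5 were higher and 3 lower after 4 h of H2O2, and 7 higher and 1 lower after 24 h. IER3, whose place among inhibitors rests on the list alone and was not tested, rose by 1.07 after 4 h (SE 0.05, adjusted p = 1.09e-11). The ERK phosphatase gene DUSP6 fell by 0.85 at the same time (SE 0.04, adjusted p = 4.14e-11). DUSP4, another phosphatase gene, rose by 1.16 after 24 h (SE 0.04, adjusted p = 4e-14). The median difference of this list after 24 h of H2O2 was 0.17 and that of the 4 inhibitor members 0.07, against 0.00 over all genes.

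**Figure D4:**
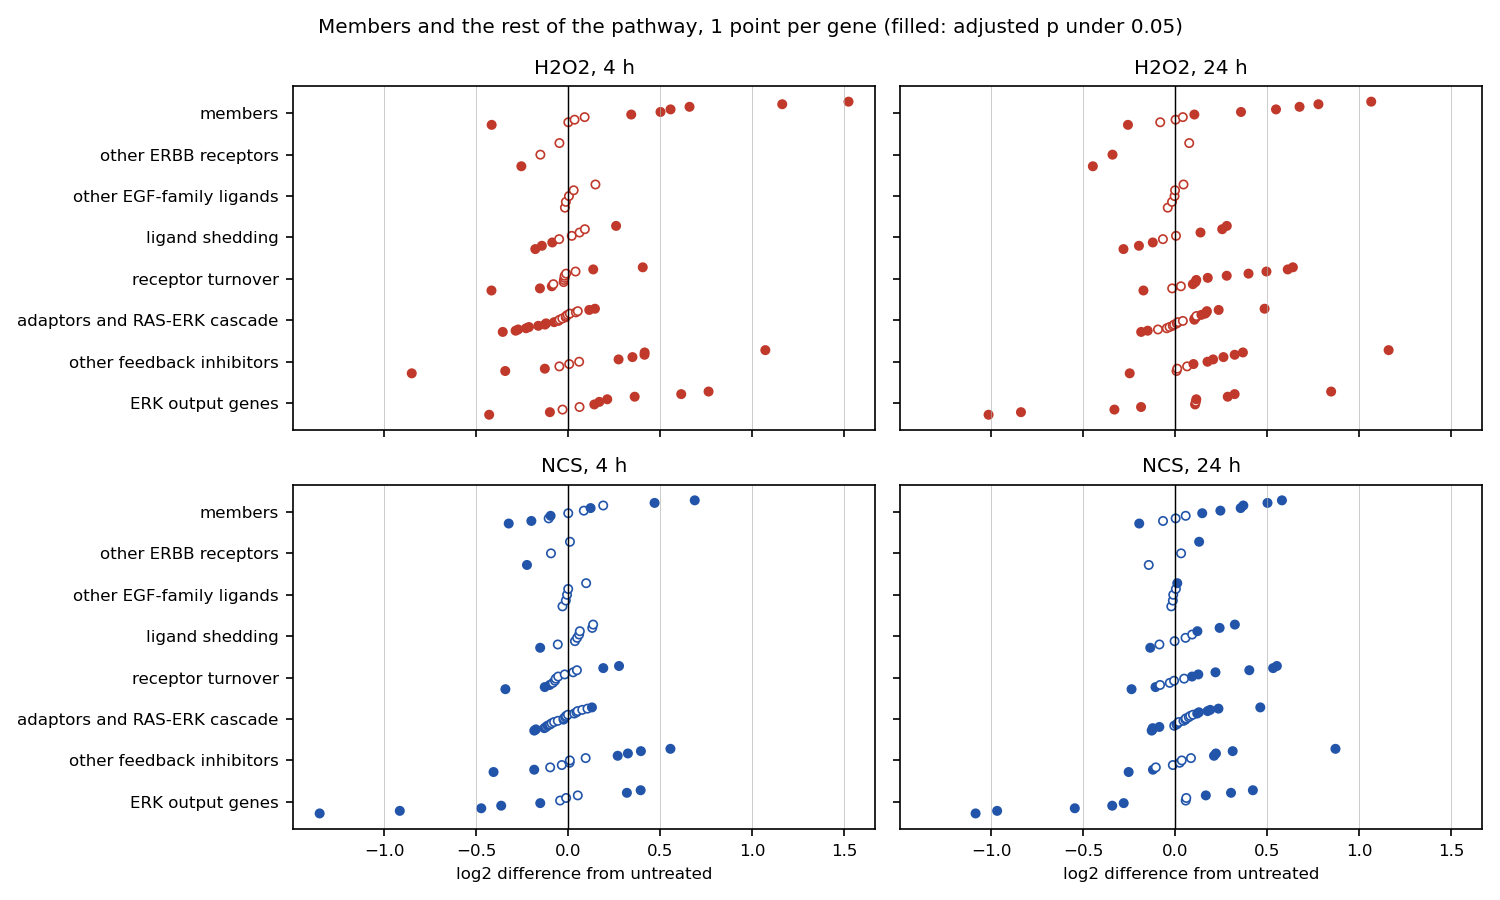
Difference from untreated cells (log2 scale of rLog values) of each gene of the members and of 7 other pathway lists, 1 point per gene, at 4 and 24 h of H2O2 (red) and NCS (blue), filled where limma's adjusted p was under 0.05. Of 12 receptor turnover genes, 9 are higher and 1 lower after 24 h of H2O2. Of 20 adaptor and cascade genes, 2 are higher and 9 lower after 4 h of H2O2, a share close to the 54.9% that passed among genes with a mean of at least 5.

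For each role, the genes whose pattern was most like that of the widest-ranging member were found over the 7 group means, among 3064 genes with a mean of at least 5 and a range of at least 0.5. HBEGF was most like HRH1 (Pearson r = 0.985), MAFK (0.974) and PFKFB3 (0.972). ERRFI1 was most like PCBP1-AS1 (0.989), PLCH2 (0.983) and TOB2P1 (0.983). EGFR was most like NNMT (0.974), PHC2 (0.968) and AKAP8L (0.967). These are descriptions over 7 points made from the same libraries.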

How the data were processed

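RNA was measured by RNA-seq (TruSeq Stranded mRNA libraries) in 21 libraries of hTERT-HPNE cells, 7 groups of 3. HISAT2 was the aligner and HTSeq the counter, and the authors deposited log2 values made with the rLog transformation of DESeq2. Per the submitters' processing notes the build was hg19, while the annotation, versions and strand setting of the counting are not given in the sources used here. Without the strand setting, reads of overlapping antisense genes cannot be told apart. Values lay between -2.31 and 20.3. Of 23368 rows, 3674 were 0 in every library and were left out.

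Values were used as deposited. All comparisons came from limma 3.58.1 (R 4.3.3) as 15 contrasts of a single model with a mean-variance trend, with Benjamini-Hochberg adjustment over 19694 genes. The fit was tested on simulated data. All 10 members are named in each comparison. Of each other list the up to 3 genes with the largest difference from untreated cells past the adjusted p are named, and for likeness the 3 genes with the highest correlation. ADAM17 is named besides. The members and lists were chosen with earlier results of these data known. RefSeq promoters (GRCh38.p14) were searched with Python 3.11.15. The alternatives were aligned library medians, quantile normalization, a mean of at least 5, no trend, only the groups compared, the replicate block, other limits on the difference and each library left out in turn. The labels call the replicates biological.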

Additional observations from a re-analysis of the deposited data

Results flagged for a closer look

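The gap between H2O2 and NCS changed with time for 7 members, by an interaction term in limma with p-values adjusted over all genes. Of all genes tested, 39.4% passed from 4 to 24 h and 32.7% from 4 to 8 h. Between 4 and 24 h the gap, H2O2 minus NCS on the log2 scale, changed by -1.505 for ERRFI1 (adjusted p = 6.63e-13), -1.46 for HBEGF (adjusted p = 2.36e-12), -0.53 for SPRY2 (adjusted p = 2.94e-07) and -0.19 for SPRY4 (adjusted p = 8.13e-05). It changed by 0.77 for NRG1 (adjusted p = 1.01e-06), 0.44 for AREG (adjusted p = 0.0111) and 0.17 for EGFR (adjusted p = 0.000582). For ERRFI1 and HBEGF the sign of the gap turned from H2O2 higher at 4 h to H2O2 lower at 24 h, and for NRG1 it turned the other way. The NRG1 gap at 24 h (0.17, adjusted p = 0.0433) lay near the threshold and was lost in most fits that left out a single library of its groups.

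Between 4 and 8 h the gap changed by -1.07 for ERRFI1 (adjusted p = 1.07e-10), -0.80 for HBEGF (adjusted p = 8.11e-09), -0.56 for SPRY2 (adjusted p = 2.47e-07) and -0.18 for SPRY4 (adjusted p = 0.000224). It changed by 0.44 for NRG1 (adjusted p = 0.000574) and 0.10 for EGFR (adjusted p = 0.0259). The EGFR call was lost after quantile normalization (0.0608), and without H2O2 4 h replicate 3 (0.0613), H2O2 8 h replicate 1 (0.063), H2O2 8 h replicate 3 (0.0646), NCS 4 h replicate 3 (0.0783) or NCS 8 h replicate 2 (0.0616).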

How the results depend on the processing

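Of 135 differences of the 9 members other than TGFA, 129 kept their direction and side of the threshold with aligned library medians, 123 with quantile normalization, 130 among genes with a mean of at least 5, 132 without the mean-variance trend and 124 in fits of only the groups compared. When each library was left out in turn, 845 of 918 kept both, 58 no longer passed, 10 newly passed and 5 changed sign. The sign changes were those of EREG in NCS from 4 to 8 h (from -0.0126 without NCS 8 h replicate 1 to 0.105) and in its gap from 4 to 8 h (from -0.0222 without H2O2 4 h replicate 2 to 0.131), and of SPRED1 between the treatments (from -0.00857 to 0.136 at 8 h, and from -0.0495 over 0.00308 to 0.0222 at 24 h). The ERRFI1 difference at 8 h of NCS became 0.00875 after quantile normalization. None of the values with a changed sign passed, and the cause was not tested. At a limit of 0.58 in place of 1, the members past it were 3, 3 and 3 at 4, 8 and 24 h of H2O2, 1, 1 and 0 in NCS, and 4, 0 and 1 between the treatments. With the adjusted p alone they were 7, 9 and 7 in H2O2, 6, 4 and 7 in NCS, and 8, 8 and 8 between the treatments. With 1 library left out, the members that passed between 4 and 8 h of NCS numbered between 1 and 3, and those that passed at 8 h of NCS against untreated between 3 and 6. By the labels, same-numbered replicates share only a number, and whether they also shared a batch was not tested. Their deviations from the group means had a mean correlation of 0.0274 over 63 pairs, against -0.0137 over 126 other pairs. A correlation over 0.1 was found in 12 of the same-numbered and 7 of the other pairs. As a further hint from the data, 12 of 21 libraries correlated best with their own number. With the replicate block, 132 of the 135 differences kept their call and 3 newly passed, AREG at 8 h of NCS (adjusted p = 0.0423), EREG at 4 h of NCS (0.0416) and SPRED1 from 8 to 24 h of H2O2 (0.0476). The block moved the members that passed from 6 to 7 at 4 h and from 4 to 5 at 8 h of NCS. Aligning medians shifted the median difference of all genes by at most 0.0303. Depth is unknown, which limits what can be said of TGFA.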

Other observations

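Among 10 genes known as outputs of ERK signalling, 6 passed as higher than untreated and 2 as lower after 4 h of H2O2, with 2 higher and 5 lower after 4 h of NCS. Over all genes tested the shares were 26.2% and 19.7% in H2O2 and 7.47% and 9.72% in NCS, and among genes with a mean of at least 5, 54.9% and 27.9% passed in either direction. FOS was higher by 0.76 at 4 h of H2O2 (adjusted p = 3.24e-07 from limma), the sampled time at which HBEGF, ERRFI1 and SPRY2 were highest. It differed by -1.02 at 24 h of H2O2 (adjusted p = 4.64e-09). In NCS, FOS was lower at all times, reaching -1.09 at 24 h (adjusted p = 2.03e-09). EGR1 was lower in every treated group, with the largest fall at 4 h of NCS (-1.35, adjusted p = 8.94e-10) and -0.43 at 4 h of H2O2 (adjusted p = 0.000195). PHLDA1 was higher by 0.36, 0.56 and 0.85 at 4, 8 and 24 h of H2O2 (adjusted p = 7.92e-06, 5.08e-08 and 6.17e-11), times at which AREG was also higher.

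The phosphatase genes of the pathway did not move alike. DUSP6 fell by 0.85 at 4 h of H2O2 (adjusted p = 4.14e-11 from limma), when ERRFI1 was higher by 1.16 (adjusted p = 1.51e-14). It fell by 0.41 at 4 h of NCS (adjusted p = 2.56e-06), when ERRFI1 was lower, and reached 0.17 at 24 h of H2O2 (adjusted p = 0.00376). DUSP4 was higher in all 6 treated groups, from 0.41 at 4 h of H2O2 (adjusted p = 1e-07) to 1.16 at 24 h.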
